A study of Mus musculus with 9 samples.

Results

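The genes described here encode the proteasome in murine Tc17 cells, the IL-17-producing CD8+ T cells whose response to dimethyl fumarate (DMF) was the question of the study. They were taken by name alone, as every gene with a symbol made of Psm, a letter from a to g and a number, and with a mean of at least 10 normalized counts over the 9 libraries. 48 symbols fitted the name and 46 of them reached the mean, out of 41388 genes listed and 11599 with such a mean. The 2 left out were Psma8, the core subunit of germ cells, with a mean of 2.09 normalized counts, and Psmb11, the catalytic subunit of the thymic cortex, with 1.53. By name, the 46 genes comprise 7 core alpha subunits (Psma), 7 constitutive core beta subunits (Psmb), 3 beta subunits of the immunoproteasome (Psmb8, Psmb9 and Psmb10), 6 ATPases of the cap (Psmc), 14 other cap genes (Psmd), 4 activators (Psme), the inhibitor Psmf1 and 4 assembly chaperones (Psmg).

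Naive CD62L+CD44-CD8+ T cells of lymph node and spleen from C57BL/6 mice were cultured for 2 days on plate-bound anti-CD3 with anti-CD28, IL-2, TGF-β, IL-6 and an antibody against IFN-γ, in all groups alike. The groups were a solvent control with 0.2% DMSO (Ctrl), DMF at 20 µM, and the same dose of DMF plus glutathione in its reduced form at 50 µM (DMF + GSH). That the DMF and DMF + GSH cultures also held 0.2% DMSO is assumed, since the labels do not say so outright. Each group had 3 libraries, replicate 1 from preparation batch 1 and replicates 2 and 3 from batch 2. Nothing in the labels says whether the replicates came from separate mice, so that p-values measure only the spread between these libraries, which may be technical.

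The proteasome degrades proteins that carry ubiquitin chains. Its barrel-shaped core is built of outer alpha rings and inner beta rings, and the beta subunits Psmb5, Psmb6 and Psmb7 carry the active sites. The cap recognises ubiquitin, removes it and feeds the unfolded protein into the core with a ring of ATPases. In lymphoid cells and under IFN-γ, Psmb8, Psmb9 and Psmb10 take the places of Psmb5, Psmb6 and Psmb7 in newly built cores, which then favour peptides for MHC class I. In many cell types, a shortage of proteasome activity raises the transcription of nearly all subunit genes together through NFE2L1 (NRF1), and NRF2, the factor released when DMF modifies KEAP1, also acts on some of them.

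Promoters of members that stand for different responses to DMF are shown first. The sequences are RefSeq promoter windows of GRCm38.p6, 250 bases before to 50 bases after the start of the RefSeq entry, written 5′ to 3′ in the direction of the gene. For Psmb8 and Psme1 this start lies downstream of the gene start in the GENCODE coordinates given below, and their windows fall inside the annotated gene. Capitals mark the letters of 1 searched motif on either strand. Psmb5 and Psmb6 are core subunits that rose with DMF, and both hold the antioxidant-response-like motif TGACNNNGC. Psme4 is an activator that holds the same motif and that did not pass the test. Psmb8 is an immunoproteasome subunit with a GAS-like motif (TTCNNNGAA), and Psme1 an interferon-inducible activator with an ISRE-like motif (GAAA, any 2 bases and GAAA).
Psmb5, chr14:54617946-54618245, reverse strand: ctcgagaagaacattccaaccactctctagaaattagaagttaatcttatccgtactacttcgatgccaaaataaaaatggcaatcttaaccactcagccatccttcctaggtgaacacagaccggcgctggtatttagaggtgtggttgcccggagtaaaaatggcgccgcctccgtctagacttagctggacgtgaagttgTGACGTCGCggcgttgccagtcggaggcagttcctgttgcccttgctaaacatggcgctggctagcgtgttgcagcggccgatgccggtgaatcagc
Psmb6, chr11:70525107-70525406, forward strand: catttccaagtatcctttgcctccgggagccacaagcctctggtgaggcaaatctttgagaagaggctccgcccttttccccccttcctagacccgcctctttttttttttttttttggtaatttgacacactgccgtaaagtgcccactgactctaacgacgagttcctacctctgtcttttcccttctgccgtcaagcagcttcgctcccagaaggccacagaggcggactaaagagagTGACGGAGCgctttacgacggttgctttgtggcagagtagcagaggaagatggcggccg
Psme4, chr11:30771525-30771824, forward strand: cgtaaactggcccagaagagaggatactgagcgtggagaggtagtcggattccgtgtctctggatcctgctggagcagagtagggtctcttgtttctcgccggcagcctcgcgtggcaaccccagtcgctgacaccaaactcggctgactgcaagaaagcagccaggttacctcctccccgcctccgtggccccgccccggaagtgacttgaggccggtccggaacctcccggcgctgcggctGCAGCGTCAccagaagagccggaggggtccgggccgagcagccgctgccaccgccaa
Psmb8, chr17:34197945-34198244, forward strand: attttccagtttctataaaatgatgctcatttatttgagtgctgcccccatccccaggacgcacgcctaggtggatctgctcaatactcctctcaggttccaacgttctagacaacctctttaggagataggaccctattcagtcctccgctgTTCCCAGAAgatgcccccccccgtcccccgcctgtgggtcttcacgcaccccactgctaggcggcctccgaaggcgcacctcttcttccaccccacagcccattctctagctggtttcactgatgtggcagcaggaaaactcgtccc
Psme1, chr14:55578244-55578543, forward strand: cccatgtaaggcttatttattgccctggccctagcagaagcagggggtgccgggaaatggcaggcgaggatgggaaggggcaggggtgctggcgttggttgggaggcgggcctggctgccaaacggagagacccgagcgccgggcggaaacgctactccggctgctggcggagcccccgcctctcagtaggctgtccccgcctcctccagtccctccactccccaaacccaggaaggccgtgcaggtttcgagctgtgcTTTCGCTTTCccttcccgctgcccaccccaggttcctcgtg
Counted from 0 at the base of the start, the first base of the match lay at -47 in Psmb5, at -9 in Psmb6, at -7 in Psme4, at -97 in Psmb8 and at 9 in Psme1. A promoter entry was found for 39 of the 46 members, and 7 (Psmb1, Psmb2, Psmb7, Psmc3, Psmd3, Psmd7 and Psmg2) had no entry. TGACNNNGC was present in 6 of the 39 (15.4%), in 14.0% of the 27025 genes of the table and in 12.4% of its 32851 promoters. The 6 were Psmb5, Psmb6, Psmc6, Psmd9, Psmd12 and Psme4, with log2 fold changes of DMF against Ctrl from -0.03 to 0.43 (median 0.36), and the 33 without it ranged from -0.08 to 0.67 (median 0.28). CCAAT was found in 13 members (33.3%, against 41.1% of genes and 37.4% of promoters), TTCNNNGAA in 3 (7.69%, against 9.55% and 8.30%) and the ISRE-like motif in 5 (12.8%, against 3.99% and 3.44%). The last 5 were Psmb3, Psmd4, Psmd9, Psme1 and Psmg4. The window of Psmd9, counted for TGACNNNGC and for the ISRE-like motif, also lies inside the annotated gene, downstream of its GENCODE start. So does that of Psmb9, counted for CCAAT. Matches of different motifs overlapped in 0 members. A match of letters is a description of the sequence and not of binding.

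The RNA fitted its label of Tc17 cells. The T-cell gene Cd3e had 3781 to 5711 normalized counts over the 9 libraries, the CD8 gene Cd8a 9317 to 13778 and Il17a 31.7 to 504. Cd4, the B-cell genes Cd79a and Ms4a1 and the NK gene Ncr1 did not exceed 10.4 in any library, and the globin genes Hba-a1 and Hbb-bs were listed at 0 in all. Il17a fell with DMF, with a log2 fold change of -2.15 (p adj = 0.00305, limma). Ctrl replicate 3 stood apart in 2 of 5 myeloid genes, with 119 normalized counts of Lyz2 and 58.3 of Csf1r against at most 10.7 and 5.83 in the other 8 libraries. Its Itgax (7.11) and Flt3 (1.42) lay within the range of the other libraries (2.57 to 15.8 and 0 to 6.60), and its Cd14 was 4.27 against at most 3.71. The 5 myeloid genes found (Lyz2, Csf1r, Itgax, Cd14 and Flt3) summed to 13.5 to 191 in Ctrl, 6.35 to 25.2 with DMF and 20.4 to 28.6 with DMF + GSH, none of them at 0 throughout, and the counts of members are also given without that Ctrl library. The depth recovered from the values ranged from 7671772 to 14511926 reads per library. In such bulk RNA, fewer cells of a type and less RNA per cell cannot be told apart.

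Per kilobase of annotated exon, so that genes of different length can be compared, the members spanned a wide range in Ctrl. The highest means were those of the alpha subunit Psma6 (1502 normalized counts per kb), the beta subunit Psmb4 (1354) and the ATPase Psmc5 (1349), and the lowest were those of the chaperones Psmg3 (54.8) and Psmd9 (56.5) and the inhibitor Psmf1 (93.6). The ATPase ring had the highest median of the subsets with 952 per kb (371 for Psmc2 to 1349 for Psmc5). Alpha subunits had a median of 505, constitutive beta subunits of 520, other cap genes of 607 and assembly chaperones of 303. Psmb8 was the leading immunoproteasome subunit with 549 per kb, followed by Psmb10 with 323 and Psmb9 with 271. The annotated length can exceed that of the expressed transcript, and then the level per kb is too low.

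DMF against Ctrl asks whether the drug alters the proteasome genes. 30 of the 46 members were higher with DMF and 0 were lower (p adj under 0.05, limma with the batch in the model), whereas 14.6% of all 11599 genes were higher and 13.3% lower by the same rule. The changes were small. The median log2 fold change (log2FC) of the members was 0.30, a rise of 23.1%, against 0.005 over all genes tested. 44 of the 46 values were above 0 (50.6% of all genes), and they ranged from -0.08 for Psmb10 to 0.67 for Psmg3. None of the 46 passed the stricter limits of the study (p adj under 0.01 and log2FC of 0.75 or more), which 1.22% of all genes passed as higher. With a block for the replicate number instead of the batch term, 39 members were higher, the 30 among them, against 23.7% of all genes. In 37 members all DMF libraries lay above all Ctrl libraries, which held for 21.6% of all genes.

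The rise was seen in each of the 3 replicate numbers. The members had a median log2 difference between DMF and Ctrl of 0.31 in replicate 1, the only one of batch 1, and of 0.38 and 0.23 in replicates 2 and 3 of batch 2. 42 members were higher with DMF in all 3, which held for 3982 of all 11599 genes. Summed over the 46 members and in the order of the replicate numbers, Ctrl had 72150, 70750 and 80030 normalized counts, DMF 89120, 90700 and 94150, and DMF + GSH 71960, 74010 and 81950. DMF thus lay above the Ctrl of the same number by 23.5%, 28.2% and 17.6%. Ctrl replicate 3, the library with high Lyz2 and Csf1r, was also the Ctrl with the highest sum, and 40 of the 46 members were higher in it than in Ctrl replicate 1. Replicate 3 was likewise higher than replicate 1 in 38 members with DMF and in 39 with DMF + GSH. Without Ctrl replicate 3, 30 members were called (32.7% of all genes in either direction) and the median log2FC was 0.37.

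The number of calls depended on single libraries in the fit with the batch. Without Ctrl replicate 1 it was 8 (5.41% of all genes called in either direction), without Ctrl replicate 2 it was 10 (10.0% of all genes), without DMF replicate 3 it was 8 (8.22%) and without DMF replicate 1 it was 0 (0.948%). Each call of a member in the fit with the batch was thus lost without that library. With the replicate block, leaving out 1 library gave 33 to 40 calls, where 35.4% to 47.1% of all genes were called in either direction. The median log2FC stayed between 0.25 and 0.37 in both fits.

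**Figure D1:**
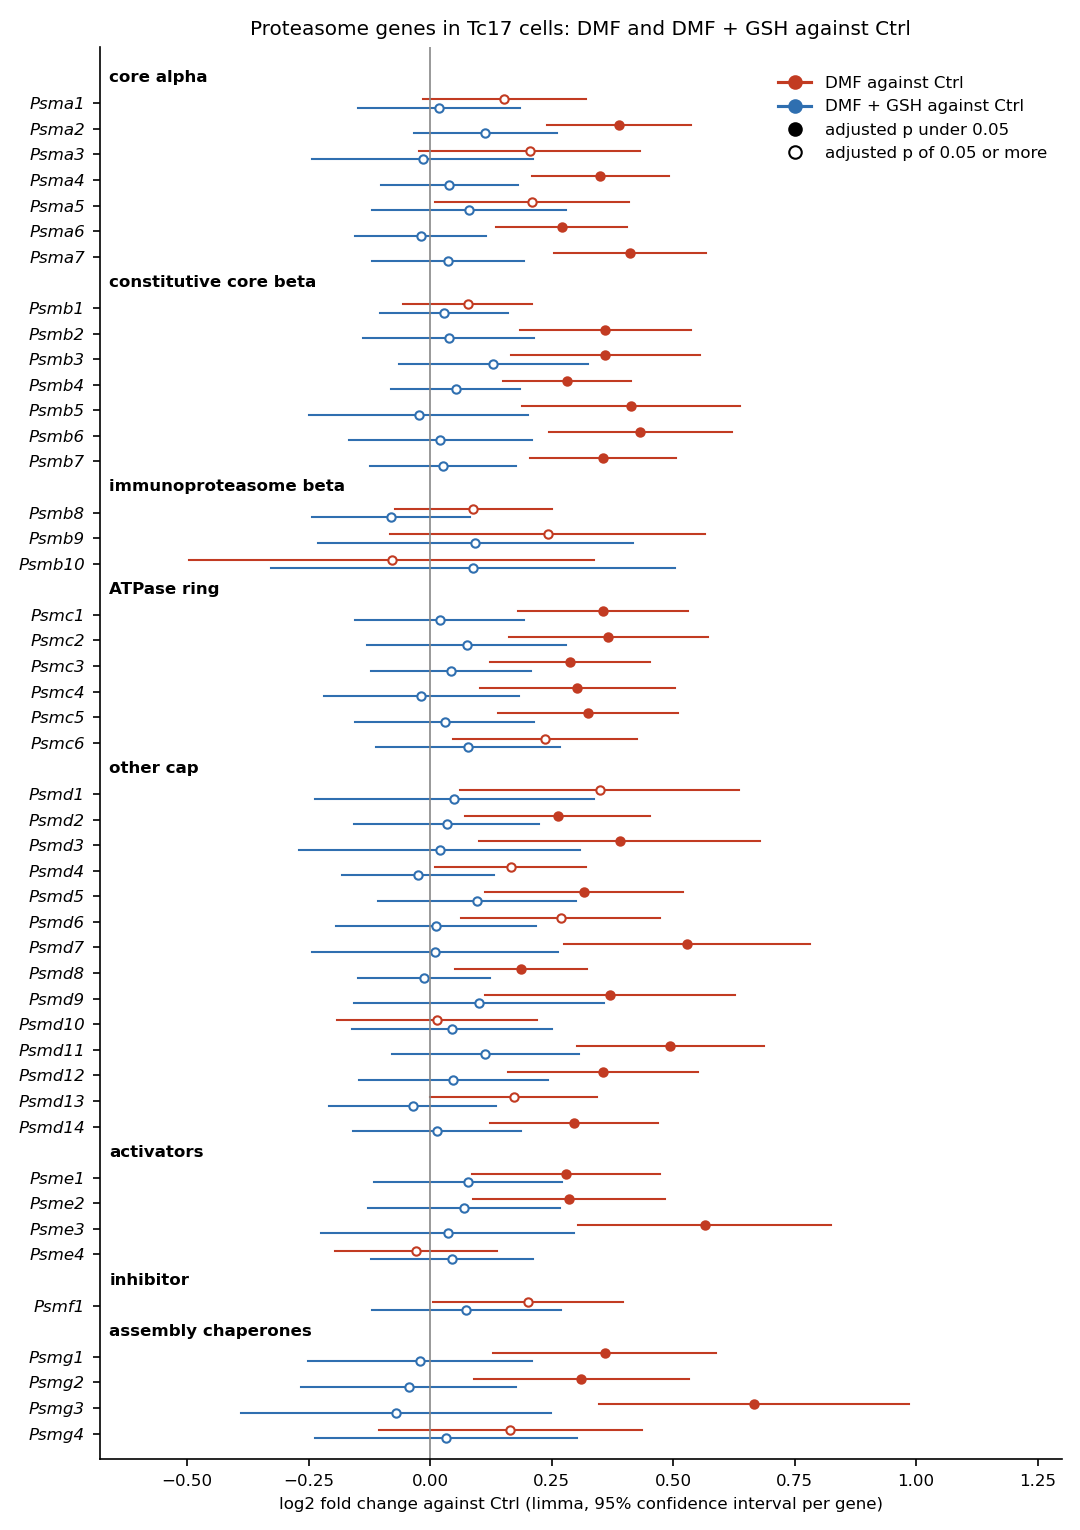
Log2 fold change (x axis) of each of the 46 proteasome genes (y axis, grouped by role) in DMF against Ctrl (red) and DMF + GSH against Ctrl (blue), with 95% confidence intervals of the limma fit; filled points have an adjusted p under 0.05. Filled red points lie to the right of 0 in 30 genes, and no blue point is filled.

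The core alpha subunits form the outer rings that gate the entry to the core. 4 of 7 were higher with DMF (6 with the replicate block), and the subset had a median log2FC of 0.27. The highest log2FC was that of Psma7. In the order of replicates 1, 2 and 3, as for all genes below, it measured 2185, 2126 and 2398 normalized counts in Ctrl, 2772, 3069 and 3080 in DMF and 2079, 2316 and 2497 in DMF + GSH. All DMF libraries lay above the other 6. The log2FC of DMF against Ctrl was 0.41 (SE 0.0704, p adj = 0.00649, limma). Psma2, with 1815, 1719 and 1716 in Ctrl, 2299, 2269 and 2302 in DMF and 1807, 1850 and 2029 in DMF + GSH, also separated DMF from the other groups (log2FC 0.39, SE 0.0661, p adj = 0.00649, limma). Psma1 had the lowest value. Its counts were 2711, 2475 and 2912 in Ctrl, 2891, 3076 and 3022 in DMF and 2822, 2601 and 2762 in DMF + GSH, so that Ctrl and DMF overlapped (log2FC 0.15, SE 0.0747, p adj = 0.150 with the batch and 0.0384 with the replicate block, limma). The log2FC of Psma1 was 0.09 without Ctrl replicate 2 and 0.22 without Ctrl replicate 3 in the fit with the batch. The call with the replicate block was lost without Ctrl replicate 1 (p adj = 0.0769) or Ctrl replicate 2 (p adj = 0.275, limma). Psma4 and Psma6 were called as well (log2FC 0.35 and 0.27). Psma3, with a log2FC of 0.20, was called in neither fit, and Psma5, with 0.21, only with the replicate block (p adj = 0.0473 against 0.105 with the batch, limma).

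The beta subunits comprise the constitutive set and the immunoproteasome set. 6 of the 7 constitutive subunits were higher in DMF (median log2FC 0.36), and in all 7 the DMF libraries lay above the Ctrl libraries. None of the 3 immunoproteasome subunits was called, with a median of 0.09 (in the fits with the batch, 0 by edgeR and 0 with an unadjusted p under 0.05, and with the replicate block 1, Psmb9, by limma and also by edgeR), and in all 3 the DMF and Ctrl libraries overlapped. The sets overlapped, since the constitutive Psmb1 (log2FC 0.08) lay below Psmb8 and Psmb9, and whether they differ in their response was not tested.

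Psmb5, on the reverse strand of chromosome 14 (54614119 to 54618022, GRCm38), encodes the chymotrypsin-like active site, the target of bortezomib. Its counts were 481, 436 and 486 in Ctrl, 605, 623 and 639 in DMF and 408, 445 and 534 in DMF + GSH. The log2FC of DMF against Ctrl was 0.41 (SE 0.101, p adj = 0.0166, limma). Its immunoproteasome counterpart Psmb8, in the MHC region of chromosome 17 (34197721 to 34201454, forward strand), had 1814, 1837 and 1915 in Ctrl, 1898, 2153 and 1880 in DMF and 1693, 1884 and 1692 in DMF + GSH. Only DMF replicate 2 exceeded all Ctrl libraries. The log2FC of Psmb8 was 0.09 with a 95% confidence interval from -0.07 to 0.25 (p adj = 0.381, limma).

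Psmb6, on chromosome 11 (70525367 to 70527858, forward strand), carries the caspase-like site. It had 1308, 1222 and 1408 normalized counts in Ctrl, 1706, 1840 and 1763 in DMF and 1160, 1372 and 1478 in DMF + GSH, the highest log2FC of the constitutive beta subunits (0.43, SE 0.0845, p adj = 0.00841, limma). Psmb9, its counterpart, lies on the reverse strand of chromosome 17 (34181987 to 34187764) and shares 212 exon bases with Tap1 on the opposite strand, where reads cannot be assigned if strand was not used in counting. Psmb9 measured 1008, 1145 and 822 in Ctrl, 1094, 1332 and 1078 in DMF and 966, 1256 and 949 in DMF + GSH. It was higher with DMF in each replicate number, although the groups overlapped (log2FC 0.24, SE 0.145, p adj = 0.233 with the batch and 0.00562 with the replicate block, limma). With 1 library left out, the log2FC of Psmb9 in the fit with the batch ranged from 0.09 (without Ctrl replicate 3) to 0.35 (without Ctrl replicate 2). The call with the replicate block was lost without Ctrl replicate 3 (p adj = 0.0637) or DMF replicate 3 (p adj = 0.0521, limma).

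Psmb7, on chromosome 2 (38588036 to 38644087, reverse strand), carries the trypsin-like site. Its counts were 1742, 1671 and 1836 in Ctrl, 2177, 2239 and 2298 in DMF and 1679, 1761 and 1911 in DMF + GSH (log2FC 0.36, SE 0.0669, p adj = 0.00745, limma). It shares 405 exon bases with Nek6 on the opposite strand. Psmb10, its counterpart on chromosome 8 (105935735 to 105938444, reverse strand), had 612, 627 and 414 in Ctrl, 470, 625 and 459 in DMF and 608, 654 and 479 in DMF + GSH. Psmb10 was lower with DMF in replicates 1 and 2 and higher in replicate 3. Its log2FC was -0.08 with a 95% confidence interval from -0.50 to 0.34 (p adj = 0.774, limma), and the sign was positive without Ctrl replicate 1, Ctrl replicate 2 or DMF replicate 1.

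**Figure D2:**
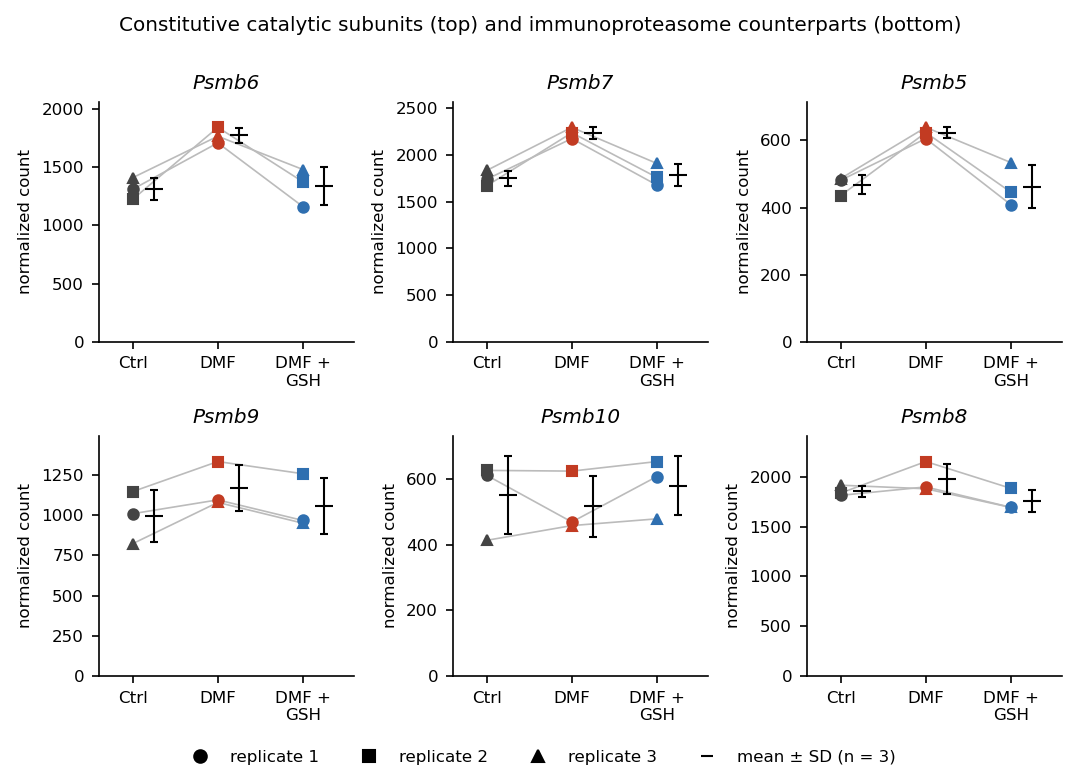
Normalized counts (y axis, from 0) of the constitutive catalytic subunits Psmb6, Psmb7 and Psmb5 (top) and of their immunoproteasome counterparts Psmb9, Psmb10 and Psmb8 (bottom) in each library, by group (x axis); grey lines join libraries of the same replicate number and bars are mean ± SD (n = 3). In the top row the 3 DMF libraries lie above all others, while in the bottom row the groups overlap.

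The ratio of each pair, per kb of exon, describes the balance within a library. For Psmb8 over Psmb5 the geometric mean was 1.06 in Ctrl, 0.843 with DMF and 1.01 with DMF + GSH, and on the log2 scale the 3 DMF libraries (-0.26, -0.12 and -0.35) lay below the 3 Ctrl libraries (0.00, 0.16 and 0.07), whereas DMF + GSH (0.14, 0.17 and -0.25) spanned both. Psmb10 over Psmb7 was 0.622 in Ctrl, 0.460 with DMF and 0.648 with DMF + GSH. On the log2 scale it was -0.50, -0.41 and -1.15 in Ctrl and -1.21, -0.84 and -1.32 in DMF, lower with DMF in each replicate number although the groups overlapped. Psmb9 over Psmb6 was 0.384, 0.336 and 0.403, lower with DMF in replicates 1 and 2 and higher in replicate 3. The absolute values depend on the annotated exon lengths, such as 3.38 kb for Psmb8 and 0.899 kb for Psmb5, whereas comparisons between groups do not. These ratios were not tested.

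The other constitutive beta subunits have structural roles. Psmb2, Psmb3 and Psmb4 were higher with DMF by a log2FC of 0.36, 0.36 and 0.28. Psmb1, singled out after its values were seen, had 0.08 (95% confidence interval -0.06 to 0.21, p adj = 0.350, limma) and means of 2104 ± 49.6 in Ctrl, 2221 ± 73.5 with DMF and 2147 ± 79.0 with DMF + GSH (SD, n = 3).

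The ATPase ring unfolds the substrate at the base of the cap. Its 6 genes lay close together, with log2FC between 0.24 and 0.37 and a median of 0.31, and in all 6 the DMF libraries lay above the Ctrl libraries. 5 of 6 were called with the batch and 6 with the replicate block. Psmc2, the highest, had 1784, 1732 and 2080 normalized counts in Ctrl, 2431, 2291 and 2477 in DMF and 1878, 1829 and 2189 in DMF + GSH (log2FC 0.37, SE 0.0920, p adj = 0.0180, limma). Psmc6, the lowest, had 1809, 1697 and 1975 in Ctrl, 2146, 2061 and 2247 in DMF and 2001, 1742 and 2044 in DMF + GSH (log2FC 0.24, SE 0.0849, p adj = 0.0613 with the batch and 0.00150 with the replicate block, limma). In both genes replicate 2 was the lowest library of its group.

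The remaining cap genes encode the scaffold, the ubiquitin receptors, the lid and some chaperones of cap assembly. 9 of 14 were higher with DMF (13 with the replicate block), and the median log2FC was 0.31. Psmd7, a lid subunit that pairs with the deubiquitinase Psmd14, had 1549, 1546 and 2041 normalized counts in Ctrl, 2319, 2365 and 2670 in DMF and 1570, 1601 and 1987 in DMF + GSH. This was the highest log2FC of the cap (0.53, SE 0.114, p adj = 0.0110, limma), and replicate 3 was the highest library of every group. Psmd11, another lid subunit, had 1255, 1267 and 1377 in Ctrl, 1815, 1728 and 1950 in DMF and 1337, 1308 and 1586 in DMF + GSH (log2FC 0.49, SE 0.0862, p adj = 0.00661, limma). Psmd14 itself was higher by 0.30 (p adj = 0.0209) and the scaffold gene Psmd2 by 0.26 (p adj = 0.0443, limma) on the log2 scale. Psmd3 was called by limma with 0.39 (p adj = 0.0485) and missed the threshold by edgeR (p adj = 0.0501).

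Psmd10 stood at the other end of the cap. It encodes gankyrin, which assists the assembly of the base and is no part of the finished proteasome. Its counts were 333, 349 and 337 in Ctrl, 334, 364 and 332 in DMF and 373, 361 and 320 in DMF + GSH (log2FC 0.01, 95% confidence interval -0.19 to 0.22, p adj = 0.917, limma), and the groups overlapped. The sign was negative without Ctrl replicate 1 or DMF replicate 2. Psmd5 and Psmd9, which encode other assembly chaperones of the base, were higher with DMF by a log2FC of 0.32 and 0.37. 1849 exon bases of Psmd9, 25.5% of its exon length, are shared with Gm26745 on the opposite strand, a gene with a mean of 11.9 normalized counts. The ubiquitin receptor Psmd4 (log2FC 0.17, p adj = 0.103 with the batch and 0.0284 with the replicate block, limma) was called only with the block. So were the scaffold gene Psmd1 (0.35, p adj = 0.0675 and 0.000109), and the lid genes Psmd6 (0.27, p adj = 0.0538 and 0.000987) and Psmd13 (0.17, p adj = 0.0218 with the block, limma).

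The activators replace the cap at the ends of the core and open it without ATP. Psme3, which encodes the nuclear activator, had the highest log2FC among them. Its counts were 3492, 3486 and 4464 in Ctrl, 5739, 5070 and 6053 in DMF and 3606, 3653 and 4449 in DMF + GSH (log2FC 0.57, SE 0.117, p adj = 0.00982, limma). Every DMF library lay above every other library, and replicate 3 was the highest in each group. Psme3 maps to chromosome 11 (101316213 to 101323537, forward strand).

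Psme1 and Psme2 encode the partners of the interferon-inducible activator and are neighbours on chromosome 14 (55578123 to 55581529, forward strand, and 55587441 to 55591113, reverse strand). Their log2FC were nearly equal. Psme1 had 2044, 2159 and 1833 normalized counts in Ctrl, 2380, 2602 and 2339 in DMF and 2075, 2311 and 1985 in DMF + GSH (log2FC 0.28, SE 0.0866, p adj = 0.0379, limma). Psme2 had 694, 765 and 666 in Ctrl, 839, 914 and 836 in DMF and 677, 834 and 722 in DMF + GSH (log2FC 0.29, SE 0.0886, p adj = 0.0379, limma). Both lost the call, with p adj up to 0.124 and 0.159, without any 1 Ctrl or DMF library, or without DMF + GSH replicate 1, in the fit with the batch. Replicate 2 was the highest library of each group in both genes. Psme2b, close to Psme2 by name but outside the naming rule, had means of 32.3 ± 1.08 in Ctrl, 18.8 ± 7.04 with DMF and 32.9 ± 1.56 with DMF + GSH (log2FC -0.82, p adj = 0.0547 with the batch and 0.0156 with the replicate block, limma), and how reads that fit both genes were counted was not stated.

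Psme4, which encodes a large activator of the nucleus that binds the core as a single chain, did not pass the test. It had 2272, 2367 and 2554 normalized counts in Ctrl, 2384, 2281 and 2377 in DMF and 2668, 2301 and 2460 in DMF + GSH (log2FC -0.03, 95% confidence interval -0.20 to 0.14, p adj = 0.793, limma). DMF lay above Ctrl in replicate 1 and below it in replicates 2 and 3, and the sign was positive without Ctrl replicate 3. Psmf1, which inhibits the core in vitro, had 592, 594 and 623 in Ctrl, 754, 645 and 684 in DMF and 585, 646 and 677 in DMF + GSH (log2FC 0.20, SE 0.0872, p adj = 0.110 with the batch and 0.0397 with the replicate block, limma). Its log2 difference from Ctrl was 0.35 in replicate 1 and 0.12 and 0.14 in the others. With 1 library left out, the log2FC of Psmf1 in the fit with the batch ranged from 0.11 (without DMF replicate 1) to 0.26 (without DMF replicate 2). The call with the replicate block was lost without any 1 Ctrl library (p adj = 0.086 to 0.116) or without DMF replicate 1 (p adj = 0.324, limma).

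**Figure D3:**
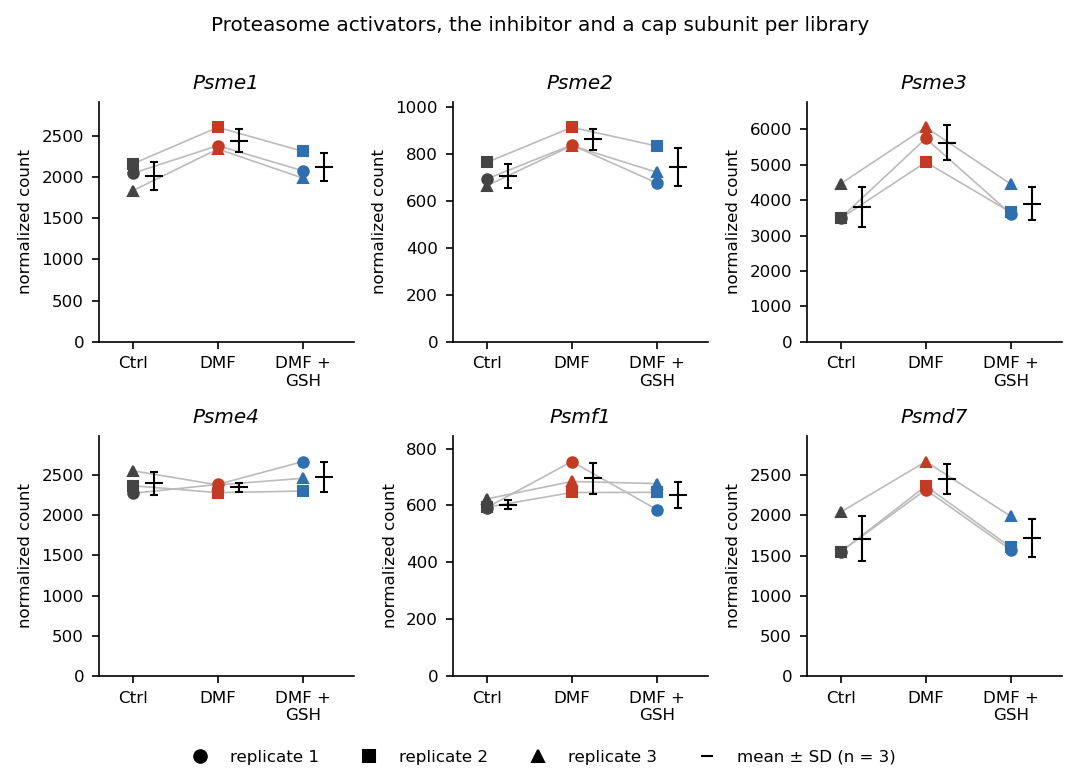
Normalized counts (y axis, from 0) of the activators Psme1 to Psme4, the inhibitor Psmf1 and the lid subunit Psmd7 in each library, by group (x axis); grey lines join libraries of the same replicate number and bars are mean ± SD (n = 3). Psme3, Psmd7 and, narrowly, Psme1 and Psme2 are higher in the 3 DMF libraries than in the other 6, and the groups overlap for Psme4.

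The assembly chaperones of the core help to build the alpha ring and do not stay in the finished particle. Of the 4, 3 were higher with DMF, and the median log2FC over the 4 was 0.34. Psmg3, described after its values were seen because it had the highest log2FC of all members, had 134, 145 and 196 normalized counts in Ctrl, 253, 240 and 254 in DMF and 130, 149 and 170 in DMF + GSH (log2FC 0.67, SE 0.143, p adj = 0.0110, limma). Ctrl replicate 3 lay well above the other Ctrl libraries, and the difference was 0.91 in replicate 1, 0.72 in replicate 2 and 0.37 in replicate 3. Psmg1 and Psmg2 had log2FC of 0.36 and 0.31, and Psmg4 of 0.17 (p adj = 0.327, limma).

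DMF + GSH was next compared with DMF, with the same DMF libraries as in the comparison above. No culture held glutathione without DMF. An action of glutathione itself on these genes therefore cannot be told apart from an action on the effect of DMF. 23 of the 46 members were lower with DMF + GSH than with DMF and 0 were higher, against 12.4% lower and 9.99% higher among all genes tested (limma with the batch). The median log2FC was -0.26, and 43 values were below 0. With the replicate block 37 members were lower (21.6% of all genes). In 33 members all DMF + GSH libraries lay below all DMF libraries (20.5% of all genes). In the fit with the batch the count was 25 without Ctrl replicate 3 and 14 without Ctrl replicate 1 (25.9% and 15.1% of all genes called in either direction). It was 0 without DMF replicate 1, DMF replicate 3, DMF + GSH replicate 1 or DMF + GSH replicate 2, where 15, 107, 10 and 143 of all 11599 genes were called. With the replicate block it was 31 to 36 without 1 library, where 30.9% to 42.0% of all genes were called.

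By role, 4 of 7 alpha subunits, 5 of 7 constitutive beta subunits, 5 of 6 ATPases, 5 of 14 other cap genes, 1 of 4 activators and 3 of 4 assembly chaperones were lower with DMF + GSH than with DMF. None of the immunoproteasome subunits nor Psmf1 was called with the batch. The log2FC was -0.44 for Psmb5 (p adj = 0.0174), -0.41 for Psmb6 (p adj = 0.0137) and -0.33 for Psmb7 (p adj = 0.0135, all limma), and it was -0.17 for Psmb8 (called with the replicate block, p adj = 0.0261, limma), -0.15 for Psmb9 and 0.17 for Psmb10. The 14 members called only with the block were Psma3, Psmb3, Psmb8, Psmc6, Psmd1, Psmd2, Psmd3, Psmd4, Psmd5, Psmd6, Psmd9, Psmd13, Psme1 and Psme2. Psme3 was lower by 0.53 (p adj = 0.0157), Psmd7 by 0.52 (p adj = 0.0156) and Psmg3 by 0.74 (p adj = 0.0125) on the log2 scale (limma). Psme1 and Psme2, at -0.20 and -0.22, were called only with the replicate block (p adj = 0.00489 and 0.0127, limma).

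DMF + GSH against Ctrl gives the joint effect of DMF and glutathione, with the Ctrl libraries of the first comparison. No member was called (0.0% of all genes higher and 0.0% lower, limma), 0 members had an unadjusted p under 0.05, and edgeR also called 0. The median log2FC of the members was 0.04, with 35 values above 0 and a range from -0.08 for Psmb8 to 0.13 for Psmb3, and it moved to 0.07 when Ctrl replicate 3 was left out, to -0.03 when Ctrl replicate 2 was and to -0.02 when DMF + GSH replicate 3 was. The count of members called stayed at 0 in each of these. In 0 members did the libraries of the groups not overlap, against 2.08% of all genes higher and 2.39% lower. Summed over the members, DMF + GSH differed from the Ctrl of the same number by -0.26% to 4.62%. The 95% confidence intervals of the single genes reached from -0.39 (Psmg3) to 0.50 (Psmb10), so that changes as large as the median rise with DMF were within them for some genes. For Psme3 the interval was -0.22 to 0.30, for Psmb6 -0.17 to 0.21 and for Psma7 -0.12 to 0.19.

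**Figure D4:**
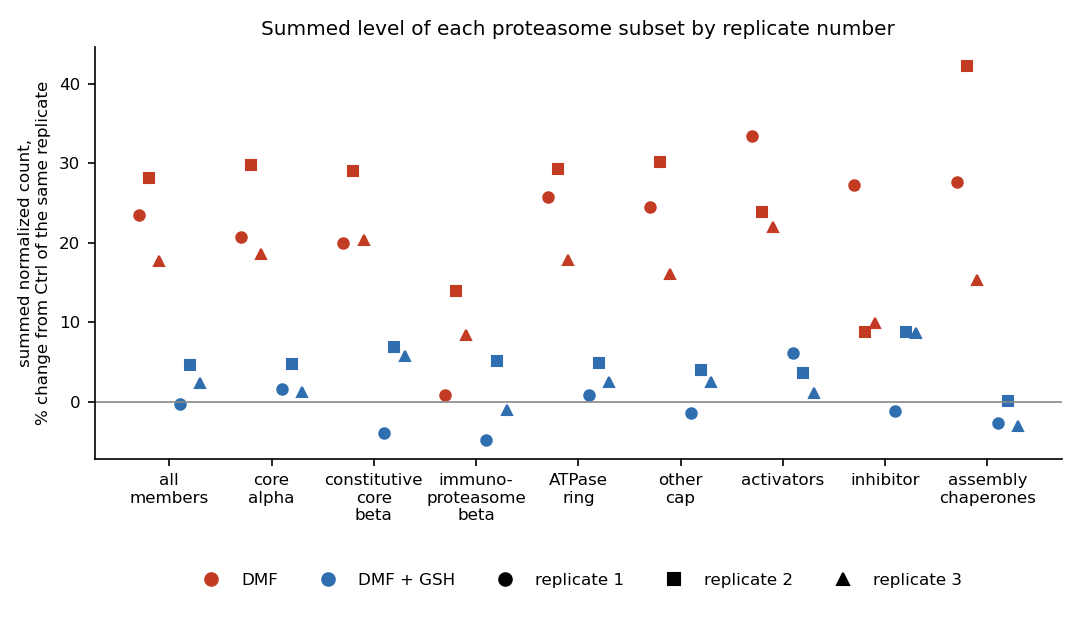
Percent change (y axis) of the summed normalized counts of each subset of proteasome genes (x axis) from the Ctrl library of the same replicate number, with DMF (red) and DMF + GSH (blue); the symbol marks the replicate number. For all members the 3 DMF libraries lie at 17.6% to 28.2% and the 3 DMF + GSH libraries at -0.26% to 4.62%; the immunoproteasome subunits with DMF lie at 0.81% to 13.9%.

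Genes that act with the proteasome but do not carry its name were taken from a list of 30, of which 29 were found and 28 tested. With DMF 13 were higher and 1 was lower (limma with the batch, against 14.6% and 13.3% of all genes), their median log2FC was 0.28, and 17 were higher with the replicate block (23.7% of all genes). Pomp, which matures the core with the Psmg chaperones, had 1511, 1491 and 1645 normalized counts in Ctrl, 1948, 2133 and 2246 in DMF and 1417, 1637 and 1762 in DMF + GSH (log2FC 0.44, SE 0.0728, p adj = 0.00607, limma). Cap-associated genes were among those higher: the ubiquitin receptor Adrm1 (log2FC 0.40), the deubiquitinases Usp14 (0.40) and Uchl5 (0.40), the thioredoxin-like Txnl1 (0.41) and the ligase Ube3c (0.28). So were the shuttle factors Ubqln4 (0.58), Rad23b (0.44) and Ubqln1 (0.31), the unfoldase Vcp (0.29) with its cofactor Nploc4 (0.27), and the ubiquitin fusion gene Rps27a (0.44).

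The factor that drives proteasome genes and the enzymes that process it are part of the list. Nfe2l1 had 1148, 1215 and 1324 normalized counts in Ctrl, 1511, 1587 and 1683 in DMF and 1099, 1273 and 1383 in DMF + GSH (log2FC 0.38, SE 0.0713, p adj = 0.00770, limma). Ngly1, the glycanase that acts on the NFE2L1 protein, was the 1 gene that fell, from 909, 861 and 712 in Ctrl to 587, 639 and 496 with DMF, with 990, 893 and 730 under DMF + GSH (log2FC -0.53, SE 0.122, p adj = 0.0142, limma). Ddi2, the protease that cleaves it, had a log2FC of -0.11 (p adj = 0.278, limma). The ubiquitin gene Ubb (log2FC -0.07) and the activating enzyme Uba1 (0.02) were not called. With DMF + GSH against DMF, 10 genes of the list were lower and 1, Ngly1, was higher (12.4% and 9.99% of all genes, limma with the batch). With the replicate block 16 were lower and 1 was higher (2506 and 2308 of all 11599 genes). None was called for DMF + GSH against Ctrl.

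**Figure D5:**
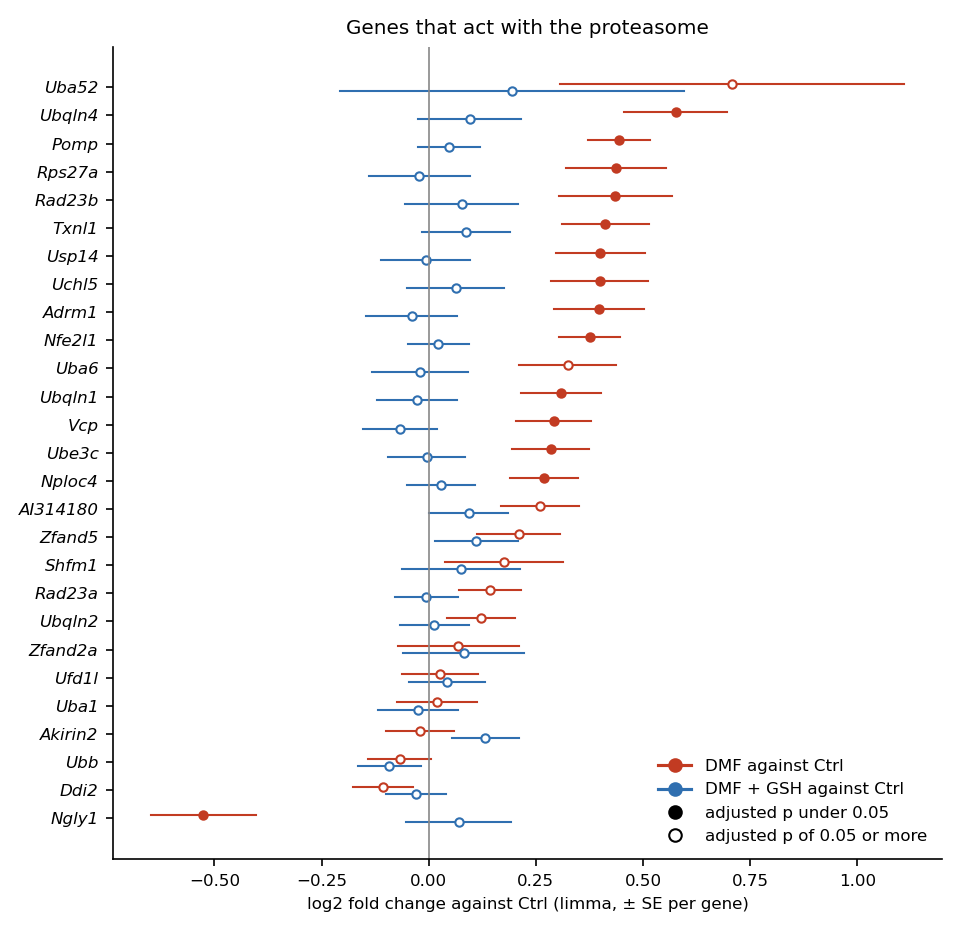
Log2 fold change (x axis) of 27 genes that act with the proteasome (y axis) in DMF against Ctrl (red) and DMF + GSH against Ctrl (blue), with ± SE of the limma fit; filled points have an adjusted p under 0.05. 13 filled red points lie to the right of 0 and 1, Ngly1, to the left.

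Beside the immunoproteasome subunits, 11 genes of antigen presentation and interferon signalling were read. 2 were higher with DMF and 0 were lower with the batch, near the 14.6% of all genes that were higher, and 4 were higher and 1 lower with the replicate block (23.7% of all genes higher). Their median log2FC was 0.004. Ifng rose from 59.2, 139 and 118 normalized counts in Ctrl to 706, 597 and 921 with DMF, with 94.6, 118 and 82.7 under DMF + GSH (log2FC 2.87, SE 0.254, p adj = 0.00124, limma), in cultures that all held an antibody against IFN-γ. The other was Erap1, the peptidase that trims proteasome products (log2FC 0.31, p adj = 0.00743, limma). The peptide transporter gene Tap1, the neighbour of Psmb9, had a log2FC of -0.02, Tap2 of -0.02, Nlrc5 of 0.00 and B2m of -0.04, none of them called in either fit. Irf1, an interferon-induced transcription factor, had 0.28 (p adj = 0.0666 with the batch and 0.00818 with the replicate block), and the class I heavy chain gene H2-K1 had 0.16 (p adj = 0.227 and 0.0246, limma). Tapbp, which encodes the peptide-loading protein tapasin, had -0.30 (p adj = 0.185 with the batch and 0.000866 with the replicate block, limma).

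Of 8 known targets of NRF2, 6 were tested and 2 were higher with DMF and 3 with the replicate block, against 14.6% and 23.7% of all genes. Srxn1 rose from 44.7, 39.9 and 48.4 normalized counts in Ctrl to 180, 117 and 126 with DMF (log2FC 1.63, SE 0.170, p adj = 0.00173, limma), and Txnrd1 from 1816, 1717 and 2682 to 3823, 3049 and 4132 (log2FC 0.84, SE 0.181, p adj = 0.0110, limma). Both log2FC lay above those of all 46 members. Gclc, with a log2FC of 0.21, was called only with the replicate block (p adj = 0.0211, limma), and Gclm (0.15), Hmox1 (0.31) and Nqo1 (0.60) in neither fit. Osgin1 and Slc7a11 were under the minimum, with means over the libraries of 7.90 and 7.07.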

How the data were processed

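Poly(A) RNA of 9 cultures was sequenced as single reads of 50 bases. The authors aligned the reads to GRCm38 with STAR 2.4.0b, counted them per gene with featureCounts and deposited them after division by the DESeq2 size factor of each library (normalized counts, used here as a signal without unit). No source used here states whether counting used strand. The authors' deposited table also holds their own comparison of 2 groups as a log2 fold change, a test score and p-values, which were not used. All deposited signal values above 0 were whole multiples of the smallest step of their library (100%, tolerance 0.01 reads), which gave the reads and the depth (7671772 to 14511926, median 11152111).

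The test was limma-trend (limma 3.58.1, R 4.3.3) with terms for group and batch, in 1 fit of all 9 libraries to the log2 of the normalized count plus 1, over 11599 genes with a mean of at least 10, with Benjamini-Hochberg adjustment over all of them. On this scale a log2 fold change understates the change of low genes. Replicate numbers paired the libraries. After subtraction of the group means, the correlation across genes was 0.447 to 0.578 for the 9 same-numbered pairs of libraries. It was -0.471 to -0.0621 for the others, which the subtraction makes negative on average wherever same-numbered pairs are positive. Member calls that change with the replicate block are named. The test was checked first on simulated counts that held no batch effect and no pairing of replicates, so that check does not cover either. Alternatives were pseudocount, minimum, TMM rescaling, no batch, the block, edgeR 4.0.16 on the recovered reads (3276 genes called for DMF against Ctrl, 2649 for DMF + GSH against DMF) and each library left out.

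Members, subsets and lists were chosen with earlier results of these data known. Some genes of the lists are not reported here. Genes given with every library are the catalytic beta subunits, the activators, Psmf1, the highest and lowest log2FC of the alpha, ATPase and other cap subsets, and the 3 smallest p. Psmg3 and the genes outside the members that are given with every library were chosen after their values were seen. Exons are those of GENCODE vM21, and 13 members share exon bases with another gene. Scripts ran in Python 3.11.15 with pandas 2.3.3, NumPy 2.4.6 and Matplotlib 3.10.9.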

Additional observations from a re-analysis of the deposited data

How the results depend on the processing

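Without the replicate block, the number of proteasome genes higher with DMF than with Ctrl was 25 to 30 under another pseudocount, minimum, scaling or no batch term and 29 by edgeR, and it was 39 with the block in either tool. The number lower with DMF + GSH than with DMF rose from 23 to 37 with the replicate block in limma and in edgeR, and was 18 to 23 otherwise. None was called between DMF + GSH and Ctrl under any alternative run. Leaving out 1 library gave 0 to 32 calls for DMF against Ctrl with the batch and 33 to 40 with the replicate block, and 0 to 30 and 31 to 36 for DMF + GSH against DMF. With the replicate block and without 1 library, those above 1.5 times the count of 23 were 35 (without DMF replicate 3 or DMF + GSH replicate 2) and 36 (without any 1 Ctrl library). The median log2FC ranged from 0.25 to 0.37 for DMF against Ctrl and from -0.029 to 0.073 for DMF + GSH against Ctrl. The values near 0 changed sign: Psmb10 spanned -0.28 to 0.048, Psme4 -0.10 to 0.027 and Psmd10 -0.033 to 0.048 without 1 library, and with the replicate block Psmb10 was 0.020 and 0.048 without Ctrl or DMF replicate 1, Psme4 0.014 without Ctrl replicate 3, and Psmd10 -0.013 and -0.0068 without Ctrl replicate 1 or DMF replicate 2. Apart from fewer samples in each fit, the cause was not tested. Psme1 and Psme2 lost the call without a minimum (p adj = 0.0570 and 0.0606, limma). TMM moved the median gene by at most 0.00513 on the log2 scale.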
